A study of Homo sapiens with 45 samples.

Results

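Chromatin contacts of 10 WNT ligand genes (WNT1, WNT2B, WNT3, WNT3A, WNT5A, WNT6, WNT7B, WNT8B, WNT10A and WNT11) were described. A pair of fragments belonged to a gene when both fragments lay on 1 chromosome and either of them came within 1000 bp of an annotated end of the gene. By this rule 73 of the 152688 listed pairs within a chromosome (cis pairs) were WNT ligand pairs, each counted once. They belonged to 9 of the 10 genes, WNT7B having none. Of the 10 genes, 8 had at least 3 pairs, as did 4979 of the 9942 protein-coding genes with any cis pair.

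WNT proteins are secreted, lipid-modified signalling molecules that bind Frizzled receptors. In the canonical branch, joined by the co-receptors LRP5 and LRP6, they stabilise beta-catenin, which acts with TCF and LEF factors on target genes. In non-canonical branches they act on cell shape and polarity without beta-catenin. In pluripotent cells canonical WNT signalling favours primitive streak and mesendoderm fates, and many developmental genes, WNT ligand genes among them, carry H3K27me3, the mark laid down by Polycomb repressive complex 2 (PRC2).

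The contacts were measured in HNES1, an established human embryonic stem cell line, on day 5 of the passage from naive to primed pluripotency. DMSO, 2.5 µM UNC6852 (a degrader that targets the PRC2 subunit EED) or 1 µM UNC1999 (an inhibitor of the catalytic subunits EZH1 and EZH2) was added 24 h before day 0 and renewed each day. All 3 groups were moved at day 0 into N2B27 medium with XAV939, a tankyrase inhibitor used to block canonical WNT signalling, so all 3 profiles share this inhibitor. In poised-enhancer capture Hi-C, DpnII fragments that lie close together in fixed nuclei are ligated, and fragments holding poised enhancers (the baits) are pulled down with RNA probes. Each group had 15 libraries, from 3 biological replicates in 2 batches, and the deposited table gives 1 score per pair and group, pooled over them. The score, from the program CHiCAGO, rises with the excess of reads that join a bait to another fragment over a background model. Scores of 5 and above count as calls, and a pair is listed only if it reached 5 in at least 1 profile. With 1 pooled profile a group, replicate spread was not available and nothing could be tested, and read numbers were unknown. Where 3 scores of a pair follow each other without labels, they are those of DMSO, UNC6852 and UNC1999 in this order. All 3 groups share 1 cell line, both treated profiles are set against the same DMSO profile, and the doses differ, so the compounds were not compared in strength. The assay reads DNA contacts, so neither expression of the ligands nor cell identity was measured.

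Promoter sequence was available for 8 of the 10 genes (RefSeq, GRCh38.p14), taken as the 250 bases before the annotated transcript start. The windows of WNT1, WNT2B and WNT10A are shown because each lies within a captured fragment, and that of WNT8B because it is the CG-poor exception among the ligands. Capitals mark matches on either strand to GATC (the DpnII site at which fragments are cut), GGGCGG (the GC box), CCAAT and TATAAA, and no matches overlapped.
WNT1: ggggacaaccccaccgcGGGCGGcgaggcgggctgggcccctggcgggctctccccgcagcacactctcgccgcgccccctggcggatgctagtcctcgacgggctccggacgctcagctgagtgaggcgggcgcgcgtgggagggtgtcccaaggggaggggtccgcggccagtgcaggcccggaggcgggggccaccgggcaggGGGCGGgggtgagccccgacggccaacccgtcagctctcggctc
WNT2B: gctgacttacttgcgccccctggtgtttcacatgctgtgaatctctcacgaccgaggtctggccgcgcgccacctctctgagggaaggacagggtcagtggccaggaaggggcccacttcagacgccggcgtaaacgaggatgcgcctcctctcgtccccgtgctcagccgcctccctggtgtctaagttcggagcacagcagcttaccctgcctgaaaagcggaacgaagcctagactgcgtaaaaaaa
WNT10A: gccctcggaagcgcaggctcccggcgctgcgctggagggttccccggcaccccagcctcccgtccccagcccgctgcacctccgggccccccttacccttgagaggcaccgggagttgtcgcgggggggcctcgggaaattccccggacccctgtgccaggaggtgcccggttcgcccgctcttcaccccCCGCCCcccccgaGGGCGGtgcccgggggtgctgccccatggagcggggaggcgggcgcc
WNT8B: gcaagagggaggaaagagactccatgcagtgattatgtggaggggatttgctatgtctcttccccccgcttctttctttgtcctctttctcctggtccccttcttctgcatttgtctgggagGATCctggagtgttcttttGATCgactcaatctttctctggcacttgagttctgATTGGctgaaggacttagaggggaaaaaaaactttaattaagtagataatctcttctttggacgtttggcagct
All 4 windows are on the plus strand, at chr12:48978072-48978321, chr1:112466291-112466540, chr2:218880602-218880851 and chr10:100462759-100463008.

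The 8 windows held a median of 25 CG dinucleotides, against 17 over 15843 promoters of the same length. WNT3A had the most, 38, then WNT6 with 32, WNT1 with 29, WNT3 with 26, WNT10A with 24, WNT2B with 18 and WNT5A with 14. WNT8B had 3. The median content of G and C was 73.2% against 62.4% over all promoters. A GC box stood in 6 of the 8 windows, against 56.0% of all promoters, with 6 matches in WNT6 and 5 in WNT3A and none in WNT2B or WNT8B. CCAAT was found in 2 windows (WNT3 and WNT8B) against 34.5% of all promoters, and GATC in 2 (WNT5A and WNT8B) against 34.0%. TATAAA was found in none, against 9.23%. Of the sequences shown, only that of WNT8B is cut by DpnII, with 2 GATC sites. The captured fragment over the WNT1 promoter spans 1928 bases, that over the WNT2B promoter 1337 and that over the WNT10A promoter 1340.

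WNT ligand pairs were called in 1 profile more often than cis pairs in general, and few recurred. DMSO called 22 of the 73 pairs (30.1%, against 42.4% of all cis pairs), UNC6852 30 (41.1%, against 46.1%) and UNC1999 27 (37.0%, against 42.3%). The exact Clopper-Pearson 95% intervals, which cover counting error only, were 19.9% to 42.0%, 29.7% to 53.2% and 26.0% to 49.1%. Calls in a single profile made up 68 of the 73 pairs (93.2%, against 77.5% of all cis pairs), 4 pairs had calls in 2 profiles and 1 in all 3. DMSO alone called 19 (26.0%, against 25.0%), UNC6852 alone 26 (35.6%, against 27.7%) and UNC1999 alone 23 (31.5%, against 24.8%), and 2 pairs were called in both treated profiles and not in DMSO (2.74%, against 5.09%). Thus 5 pairs (6.85%, interval 2.26% to 15.3%) recurred in at least 2 profiles, against 22.5% of all cis pairs, and 1 (1.37%) in all 3, against 8.33%. A score of 0 in at least 1 profile was seen for 30 pairs (41.1%), against 23.5%. The median highest score was 5.85 for WNT pairs and 6.06 for all cis pairs, 19 WNT pairs reached 7 (26.0%, against 29.0%) and 1 reached 10 (1.37%, against 7.21%).

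Calls kept from 1 profile to another were few in all 6 directions. Of the 22 DMSO calls, 2 were also calls in UNC6852 (9.09%, against 31.4% of all cis pairs) and 2 in UNC1999 (9.09%, against 29.3%). Of the 30 UNC6852 calls, 3 were also calls in UNC1999 (10.0%, against 29.1%) and 2 in DMSO (6.67%, against 28.8%). Of the 27 UNC1999 calls, 3 were also calls in UNC6852 (11.1%, against 31.7%) and 2 in DMSO (7.41%, against 29.3%). The treated profiles therefore shared about as few WNT calls with each other as with DMSO. Among the 52 pairs of 100 to 500 kb, 4 recurred (7.69%, against 25.5% of all pairs at that distance) and 0 were called in all 3 profiles (against 9.42%).

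The number of pairs listed for a bait moved with this. Taken over pairs, so that a bait counts once for each of its pairs, the bait had a median of 5 cis pairs for WNT pairs. Over all cis pairs this median was 10, and a median over baits was not taken. Among baits with 1 to 3 pairs, 2 of 25 WNT pairs recurred (8.00%), against 5.26% of all pairs of such baits. Among baits with 4 to 6 pairs it was 2 of 27 (7.41%, against 10.5%), and among baits with 7 to 9 pairs 1 of 18 (5.56%, against 16.9%). Other ends of 1 bait that lay at most 2 fragments apart were then merged, with the highest score kept in each profile. All cis pairs were merged first, so a merged WNT pair could take in pairs outside the rule. After merging, 13 of 64 WNT pairs recurred (20.3%), against 25.0% of all merged pairs. Of 24 merged DMSO calls, 9 were also calls in UNC6852 (37.5%, against 35.8% of all merged pairs). The merged and unmerged shares thus do not describe the same pairs. Recurrence moved with the pairs per bait over all cis pairs and with merging at WNT genes. The part of either in the low recurrence was not tested further.

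**Figure D1:**
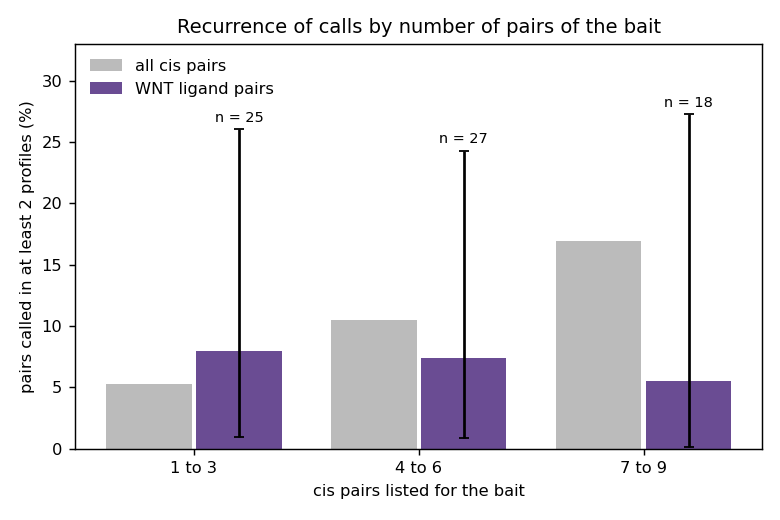
Percent of cis pairs called in at least 2 of the 3 profiles, by the number of cis pairs listed for the bait, for all cis pairs (grey) and WNT ligand pairs (purple, with n and exact 95% intervals for counting error). All pairs go from 5.26% to 16.9%, and WNT pairs from 8.00% to 5.56%, with intervals that contain the grey bar in each class.

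Most WNT contacts were of medium range. None spanned under 20 kb (0.772% of all cis pairs did). The distance was 20 to 100 kb for 7 pairs (9.59%, against 7.52%), 100 to 500 kb for 52 (71.2%, against 64.5%), 0.5 to 2 Mb for 7 (9.59%, against 19.9%) and beyond 2 Mb for 7 (9.59%, against 7.38%). The median distance was 266 kb against 314 kb. A WNT gene was on the bait in 58 pairs and on the other end alone in 15. The other end was itself a captured fragment in 11 pairs (15.1%, against 2.80% of all cis pairs). Most of the 11 were pairs of WNT6 or WNT10A, and the contact of WNT6 near DLX2 is counted from both ends. The partner of the WNT fragment was captured in 22 pairs, among them the 15 in which the partner was the bait and so captured by design. It held an end of a protein-coding gene in 22 pairs. For neither count was a share over all cis pairs taken.

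When partners of a gene at most 25 kb apart were joined into stretches, 8 stretches held at least 3 pairs, of which 5 had calls in all 3 profiles (62.5%, against 71.8% of such stretches over all genes), counting the overlapping stretches of WNT6 and WNT10A separately.

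Single pairs differed from DMSO in both directions. On the asinh scale, which behaves like a logarithm at high scores and keeps scores of 0, 18 pairs were higher by at least 1 in UNC6852 (24.7%, against 20.2% of all cis pairs) and 21 were lower (28.8%, against 17.1%). In UNC1999 16 pairs were higher (21.9%, against 18.6%) and 16 lower (21.9%, against 18.7%). Of the 73 pairs, 14 were lower in both treated profiles (19.2%, against 10.9%) and 6 higher in both (8.22%, against 5.96%). All 14 were called in DMSO alone, so they were listed only through the profile in which they were high. Both falls are read from that same DMSO score. The 6 had no call in DMSO and were listed only through a treated profile. These shares therefore do not show a shared response to the compounds. The median differences of the 73 pairs were 0.13 for UNC6852 and 0.01 for UNC1999, near the 0.02 and 0 of all cis pairs.

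**Figure D2:**
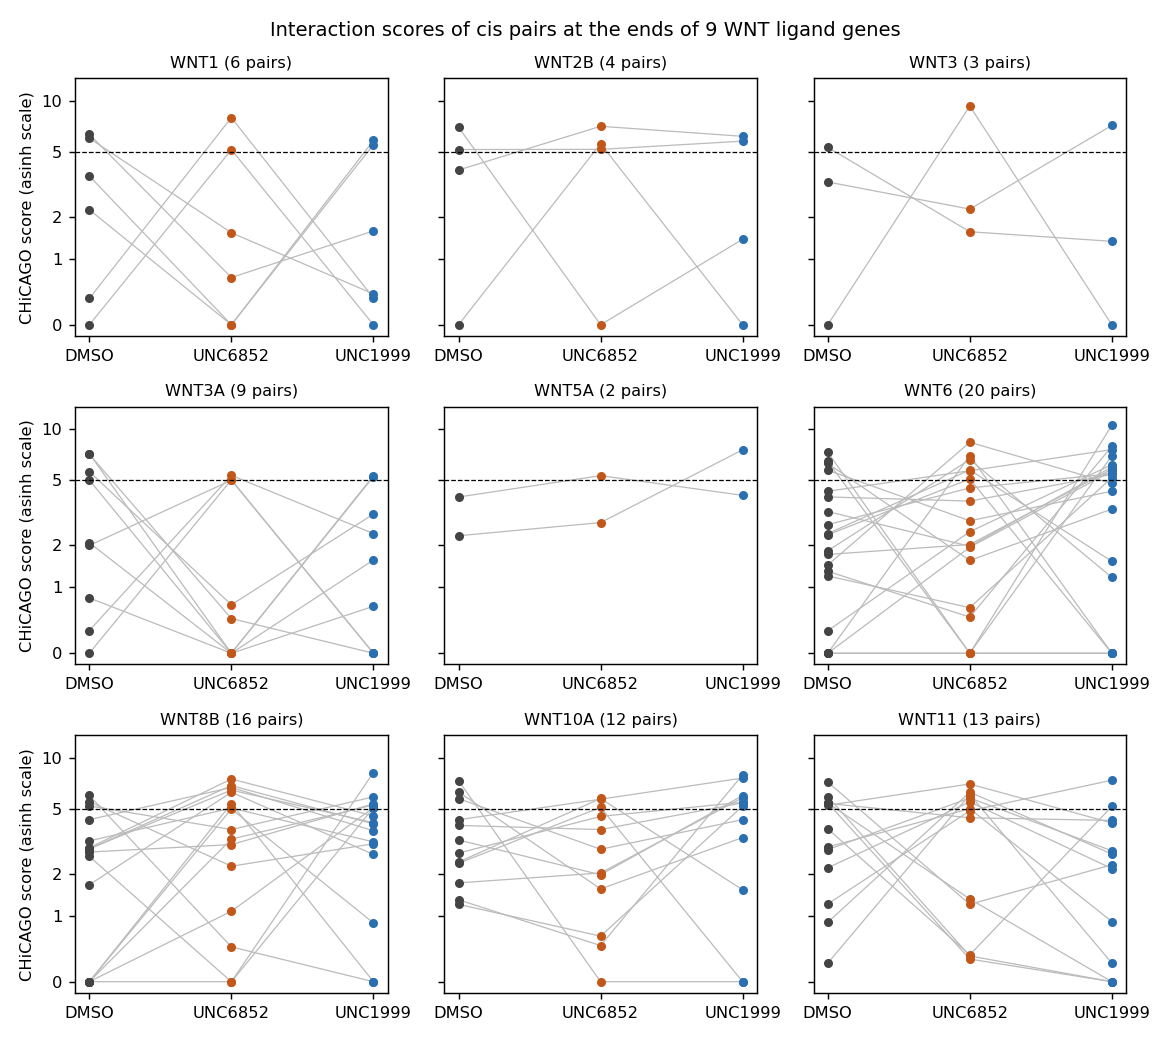
CHiCAGO score of each listed cis pair (points joined by a line) in the 3 pooled profiles, on an asinh scale, for 9 WNT ligand genes, with the threshold of 5 dashed. Most lines cross the threshold between profiles, and the 1 pair called in all 3 profiles is at WNT2B; the 12 pairs of WNT10A are also drawn under WNT6.

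By gene, the difference is that of the mean asinh score over its pairs, and a gene with at least 3 pairs was called higher or lower at a difference of 0.5. Against DMSO, UNC6852 called 1 of the 8 genes lower (WNT3A, by -0.66) and none higher, where 13.6% of 4979 genes were called lower and 18.3% higher. UNC1999 called 1 of the 8 lower (WNT11, by -0.54) and none higher, where 16.3% were called lower and 15.7% higher. The medians of the 8 genes were -0.01 for UNC6852 and -0.20 for UNC1999, against 0.07 and -0.01 over all genes. These counts are near the background. The WNT3A call did not hold when ends within 5000 bp were used (0.29) or the whole gene span (0.43). The WNT11 difference kept its sign in every setting (-0.83 to -0.42). It fell short of 0.5 on the natural logarithm, ln(score + 1), and with merged other ends (-0.49). Other settings called other genes. With pairs of up to 2 Mb UNC1999 called WNT6 (0.59) and WNT8B (0.53) higher beside WNT11 lower. With quantile-normalized scores it called WNT1 (-0.64), WNT3A (-0.72) and WNT11 (-0.83), all lower.

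**Figure D3:**
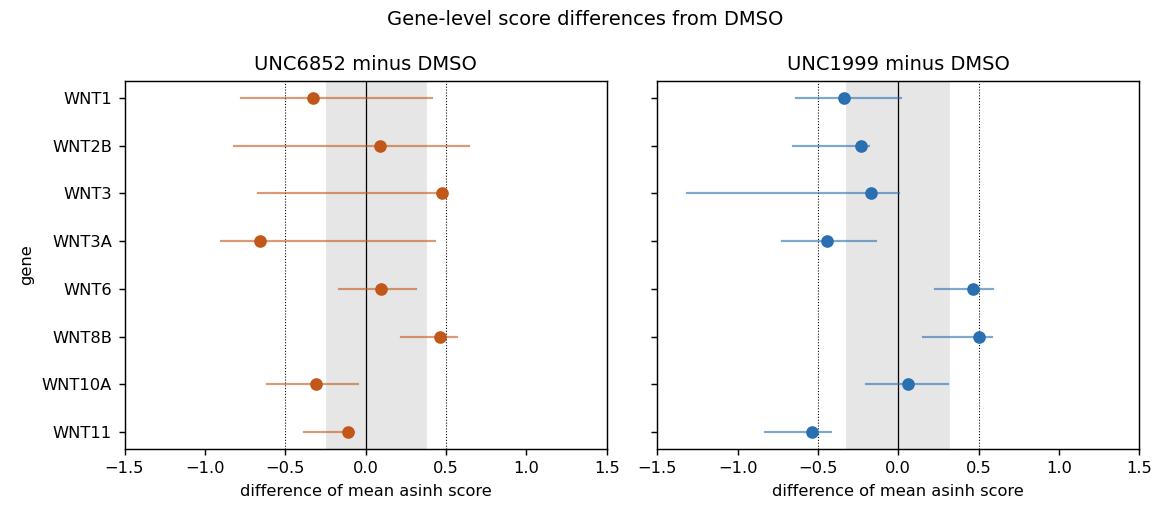
Difference of the mean asinh score from DMSO for 8 WNT ligand genes (points), with the range over the alternative settings (lines), the middle 50% of all genes (grey) and the call limit of 0.5 in either direction (dotted). WNT8B lay above 0 and WNT11 below 0 in both panels and in every setting that gave a value, whereas the lines of WNT1 cross 0 in both.

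WNT1, a canonical ligand that patterns the midbrain and hindbrain border, lies at chr12:48978322-48982620 and had 6 pairs, 2 called in each profile and none in more than 1. Its pair with the highest mean score joined a bait at its end to a captured fragment near C1QL4, 358 kb away, and scored 3.60 in DMSO, 0 with UNC6852 and 5.85 with UNC1999. A fragment in ADCY6, 197 kb from the promoter bait, scored 6.36, 0.68 and 1.61 in the same order. A fragment at RND1, 112 kb from another bait, scored 0.36, 7.97 and 0.37. The ADCY6 pair was thus called in DMSO alone and the RND1 pair in UNC6852 alone. From another fragment within WNT1, outside the rule, the same ADCY6 fragment scored 2.01, 2.23 and 5.15, a call in UNC1999. The 3 pairs to a 2.36 kb stretch in TUBA1C, 248 to 255 kb away, were called in 1 profile each, a different one for each pair. The highest score there was 6.04 in DMSO, 5.16 with UNC6852 and 5.53 with UNC1999, so the stretch as a whole was called in every profile while no single pair was. The gene's mean differed from DMSO by -0.33 in UNC6852 and -0.34 in UNC1999.

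WNT2B, a canonical ligand at chr1:112466541-112530165, had 4 pairs, among them the 1 contact at an end of a WNT gene that was called in every profile. Its upstream bait, chr1:112465337-112465898, met chr1:112386653-112392184 at an end of CTTNBP2NL, 76.2 kb away. The scores were 5.17 in DMSO, 5.18 with UNC6852 and 5.80 with UNC1999, just over the threshold each time. From another fragment within WNT2B, outside the rule, the same CTTNBP2NL fragment scored 0.17, 5.30 and 2.69, a call in UNC6852 alone. The upstream bait also met a fragment at an end of PPM1J, a protein phosphatase, 243 kb away, with 3.90, 7.09 and 6.19. That pair was called in both treated profiles and fell short in DMSO. The bait that holds the promoter sequence shown above had 1 pair, to a captured fragment 96.3 kb upstream, which scored 7.0 in DMSO, 0 with UNC6852 and 1.41 with UNC1999. A fragment in KCND3, 655 kb away, scored 0, 5.59 and 0. The gene's differences from DMSO were 0.09 and -0.23. For UNC6852 it was -0.82 with means per bait and 0.64 over the gene span, so the direction changed with the setting.

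WNT3, a canonical ligand needed for the primitive streak, lies on the minus strand at chr17:46762506-46818692 and had 3 pairs, each called in a different profile. A fragment within the gene, 43.0 kb from the bait at the start, scored 5.33 in DMSO, 1.59 with UNC6852 and 1.36 with UNC1999. A captured fragment just upstream of the start, 59.0 kb from the end of the gene, scored 3.31, 2.25 and 7.17. The pair called in UNC6852 (0, 9.31 and 0) joined the end of WNT3 to a captured fragment near LRRC37A3, 18.2 Mb away, whose bait had 101 cis pairs, the most among baits of WNT pairs. The other pairs lie within the span annotated as LRRC37A2. LRRC37A2 and LRRC37A3 are near-identical copies, so reads there are hard to place, and the part of this in the score was not tested. The difference of 0.48 in UNC6852 includes that pair, and it was -0.17 in UNC1999. With other ends merged the UNC6852 difference turned to -0.67, and that of UNC1999 was -1.32.

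WNT3A, a canonical ligand widely used to drive mesoderm from pluripotent cells, lies at chr1:228006998-228061271 and had 9 pairs, 4 called in DMSO, 3 with UNC6852 and 2 with UNC1999, none in more than 1. The pair with the highest mean score reached a fragment near SNAP47, 266 kb away, with 5.64 in DMSO, 0.70 with UNC6852 and 3.14 with UNC1999. A captured fragment near the histone gene H2BC26, 401 kb away, scored 7.20, 0 and 0.67 with the fragment at the end of WNT3A. A neighbouring captured fragment scored 0.31, 5.36 and 2.38 with that same end. A fragment near RNF187, 508 kb away, scored 7.14, 0.48 and 0. Pairs called in the treated profiles alone reached ITPKB (0, 5.04 and 0) and the ends of TRIM11 and TRIM17 (0.81, 0 and 5.33). Over the 3 pairs to the SNAP47 and JMJD4 region, 2 were called in DMSO, 0 with UNC6852 and 1 with UNC1999. The gene's mean differed from DMSO by -0.66 in UNC6852 and -0.44 in UNC1999, at percentiles 9.28 and 18.5 of all genes.

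WNT8B, a canonical ligand of the developing forebrain, lies at chr10:100463009-100483744 and had 16 pairs, all from 4 baits at its end and none at its CG-poor start. DMSO called 3, UNC6852 8 and UNC1999 6. Its differences from DMSO were 0.46 and 0.50 (just under the limit), at percentiles 80.1 and 84.2 of all genes. Downstream, 3 pairs near SLF2, 390 to 397 kb away, were all called in UNC6852 and in neither other profile. The best of them had the gene's highest mean, with 2.92 in DMSO, 7.50 with UNC6852 and 4.55 with UNC1999. The fragment chr10:100872614-100877377 was met there from 2 baits, with 0, 5.00 and 0.87 from one and 2.87, 6.87 and 4.07 from the other.

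Upstream of WNT8B, 7 pairs reached a 62.8 kb stretch over BLOC1S2, PKD2L1 (an ion channel) and SCD (stearoyl-CoA desaturase). Of these 2 were called in DMSO, 4 with UNC6852 and 2 with UNC1999. The pair 146 kb away, between PKD2L1 and SCD, was called in 2 profiles, with 5.21, 3.77 and 5.89. PAX2, a paired-box transcription factor of kidney, eye and hindbrain, was met at an end 351 kb away, with 0, 3.30 and 5.28, and within its span at a captured fragment, with 0, 1.09 and 5.09. NKX2-3, a homeobox gene, was met 952 kb away with 6.01, 0.48 and 0. Contacts near PAX2 were thus called in UNC1999 alone and that near NKX2-3 in DMSO alone. A pair reaching ARHGAP19, 3.22 Mb away, scored 0, 5.38 and 0.

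WNT6 and WNT10A, canonical ligands with roles in epithelial and skin appendage development, lie head to tail on chromosome 2, at chr2:218859805-218874233 and chr2:218874116-218893928, and their annotated spans share 118 bases. All 12 pairs of WNT10A are also among the 20 pairs of WNT6, so the genes are not separate evidence. DMSO called 4 of the 20, UNC6852 6 and UNC1999 11. For WNT10A the counts were 3, 3 and 7 of 12. The 1 pair that joined WNT genes ran from a captured fragment at the end of WNT10A to the fragment between the genes, 21.7 kb away, with 2.71 in DMSO, 4.51 with UNC6852 and 5.48 with UNC1999. It was called in UNC1999 alone.

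A 30.5 kb stretch that reaches from near CDK5R2 over FEV (an ETS transcription factor of serotonin neurons) to CRYBA2 (a lens crystallin) held 11 of the 20 pairs. Of these 2 were called in DMSO, 5 with UNC6852 and 5 with UNC1999. The fragment chr2:218973565-218978865, which lies 2.22 kb from FEV, scored 4.31, 5.71 and 7.60 with the bait between the genes, 104 kb away, the highest mean of any WNT pair. From the bait near the WNT6 start, 116 kb away, it scored 1.48, 8.39 and 4.80. DMSO was lowest from both baits, and the order of the treated profiles differed between them. Of the captured fragments at FEV, one scored 2.38, 5.77 and 1.56 and another 6.30, 1.59 and 3.37, and 1 at CRYBA2 scored 1.33, 0.50 and 7.94. Neighbouring fragments thus had their highest score in different profiles.

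**Figure D4:**
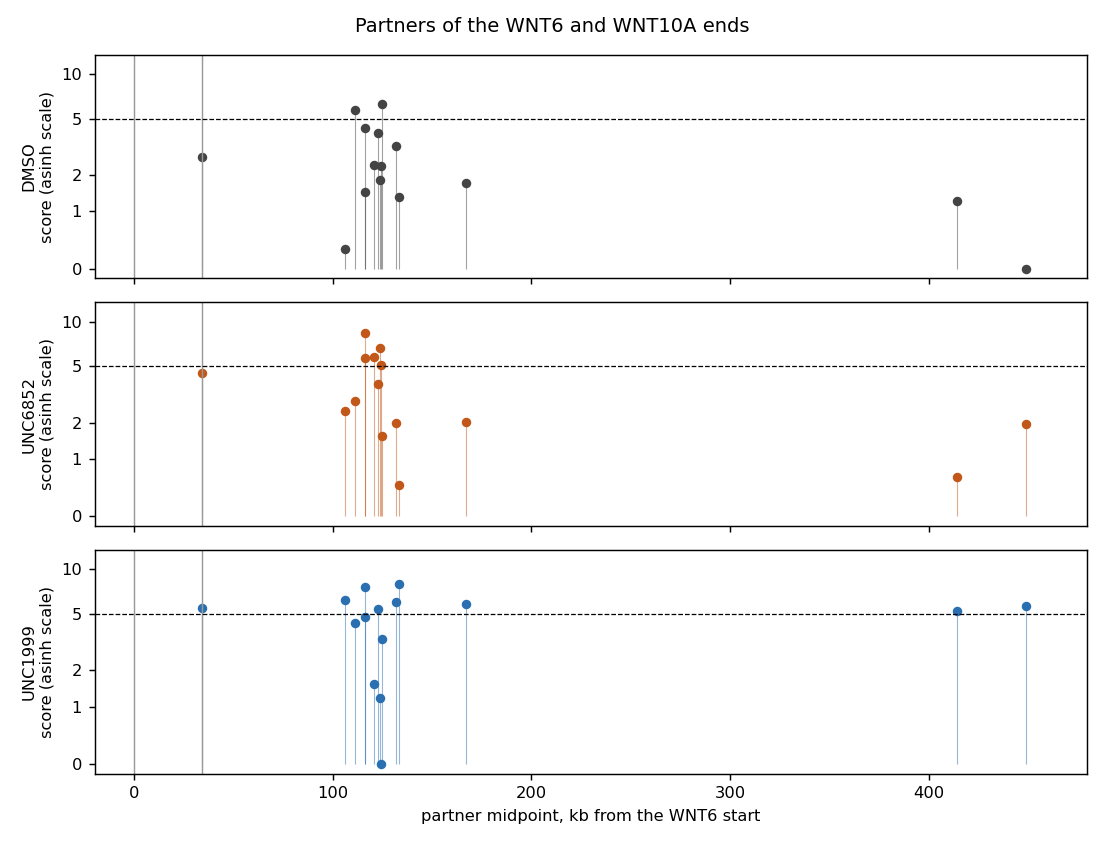
Score (asinh scale, threshold dashed) of 15 of the 20 WNT6 and WNT10A pairs against the midpoint of the partner, in kb from the WNT6 start, with grey lines at the WNT6 start and the WNT10A end, in the 3 profiles. Partners cluster 100 to 140 kb away, and the 5 pairs not drawn lie megabases away.

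The remaining WNT6 partners were called in UNC1999 or in 1 other profile. Fragments in CFAP65 (1.74, 2.03 and 5.83), at TUBA4B (1.23, 0.65 and 5.20) and at PTPRN (0, 1.95 and 5.68) were called in UNC1999. From another fragment within WNT6, outside the rule, the same CFAP65 fragment scored 0, 5.37 and 0, a call in UNC6852. A captured fragment near DLX2, a homeobox gene of forebrain interneurons, 46.7 Mb away, was listed from both ends, with 0, 0 and 7.0 from one and 0, 0 and 10.6 from the other. The latter is the highest score of any WNT pair, and the bait near DLX2 had 23 cis pairs. Fragments near NCK2, 113 Mb away, and in FAM117B, 16.2 Mb away, were called in DMSO with 7.34 and 6.47, and both treated profiles scored 0. A fragment at GPC1, 21.6 Mb away, scored 0, 7.01 and 0. These 5 pairs beyond 2 Mb thus each had a score above 0 in 1 profile. WNT6 differed from DMSO by 0.10 in UNC6852 and 0.46 in UNC1999, and WNT10A by -0.31 and 0.06.

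WNT11, a ligand of the non-canonical branch involved in gastrulation movements and heart development, lies at chr11:76186325-76210761 and had 13 pairs from 2 adjacent baits. DMSO called 6, UNC6852 6 and UNC1999 2. Its mean differed from DMSO by -0.11 and -0.54, the latter among the lower calls. The pair with the highest mean, 102 kb away and near THAP12, scored 5.26 in DMSO, 7.02 with UNC6852 and 4.12 with UNC1999, and the next fragment scored 5.39, 4.43 and 4.27. Around LRRC32, 446 to 495 kb away, 1 of 5 pairs was called in DMSO, 3 with UNC6852 and 1 with UNC1999. There the fragment at the LRRC32 end scored 0.25, 6.08 and 0.25, and one within the gene scored 1.24, 4.88 and 7.39. A further fragment, 490 kb away, scored 5.91, 0.35 and 0. In the other direction, DGAT2, an enzyme of triglyceride synthesis, was met at 7.20, 1.23 and 2.29 within the gene and at 3.80, 0.37 and 5.17 at its end.

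WNT5A, the best known non-canonical ligand, lies on the minus strand at chr3:55465715-55505263 and had 2 pairs at its ends, with no bait there. A captured fragment in ERC2, its upstream neighbour, 193 kb away, scored 3.99 in DMSO, 5.34 with UNC6852 and 4.08 with UNC1999. Another in ERC2, 423 kb away, scored 2.31, 2.79 and 7.58. The transcript start used for the promoter windows, at position 55487306, lies within the annotated span, away from both ends, so the rule misses it. The same holds for WNT10A, whose start at position 218880852 lies within its span. None of its 12 pairs came from the captured fragment that holds its promoter sequence, which had 3 pairs of its own. These reached PNKD and TMBIM1 (0, 0 and 5.50), CFAP65 (0.54, 0.51 and 6.51) and a fragment 186 kb away (0, 5.11 and 0.88), so none was called in DMSO.

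When the whole span of each gene with 1000 bp on either side was used, an alternative added after the values were seen, the 10 genes had 261 pairs. WNT5A then had 70, WNT3A 42, WNT6 37, WNT10A 30, WNT3 22, WNT1, WNT8B and WNT11 17 each, WNT2B 11 and WNT7B 10. Of the 261 pairs 30 recurred (11.5%, against 22.0% of pairs at the span of any protein-coding gene) and 8 were called in all 3 profiles (3.07%, against 8.10%). WNT5A held 17 of the 30 and 7 of the 8.

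At the WNT5A span DMSO called 33 of the 70 pairs, UNC6852 35 and UNC1999 26, and in 66 of the pairs the partner lay in ERC2. Between 150 and 300 kb upstream of the start there were 39 pairs, 23 called in DMSO, 23 with UNC6852 and 14 with UNC1999. The fragment chr3:55722770-55728056 was met from 6 fragments of the gene, 235 to 242 kb away. Of these 6 pairs 4 were called in DMSO (scores 1.94 to 8.84, median 5.74), 6 with UNC6852 (6.38 to 8.41, median 7.34) and 5 with UNC1999 (4.81 to 12.7, median 6.41), and 4 were called in all 3. The adjoining fragment, chr3:55717644-55722769, was also met from 6 fragments, with 3 calls in DMSO, 5 with UNC6852 and 3 with UNC1999. A fragment farther upstream, chr3:55898926-55904246, was met from 3 fragments, and scored 9.31, 8.39 and 6.59 from one, 418 kb away. From the others it scored 4.44, 2.66 and 5.22 and 3.40, 6.56 and 4.06, each with a call in 1 profile. The score ranges of the profiles overlapped at both neighbouring fragments. The mean asinh score over the 70 pairs was 1.86 in DMSO, 1.91 with UNC6852 and 1.86 with UNC1999.

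**Figure D5:**
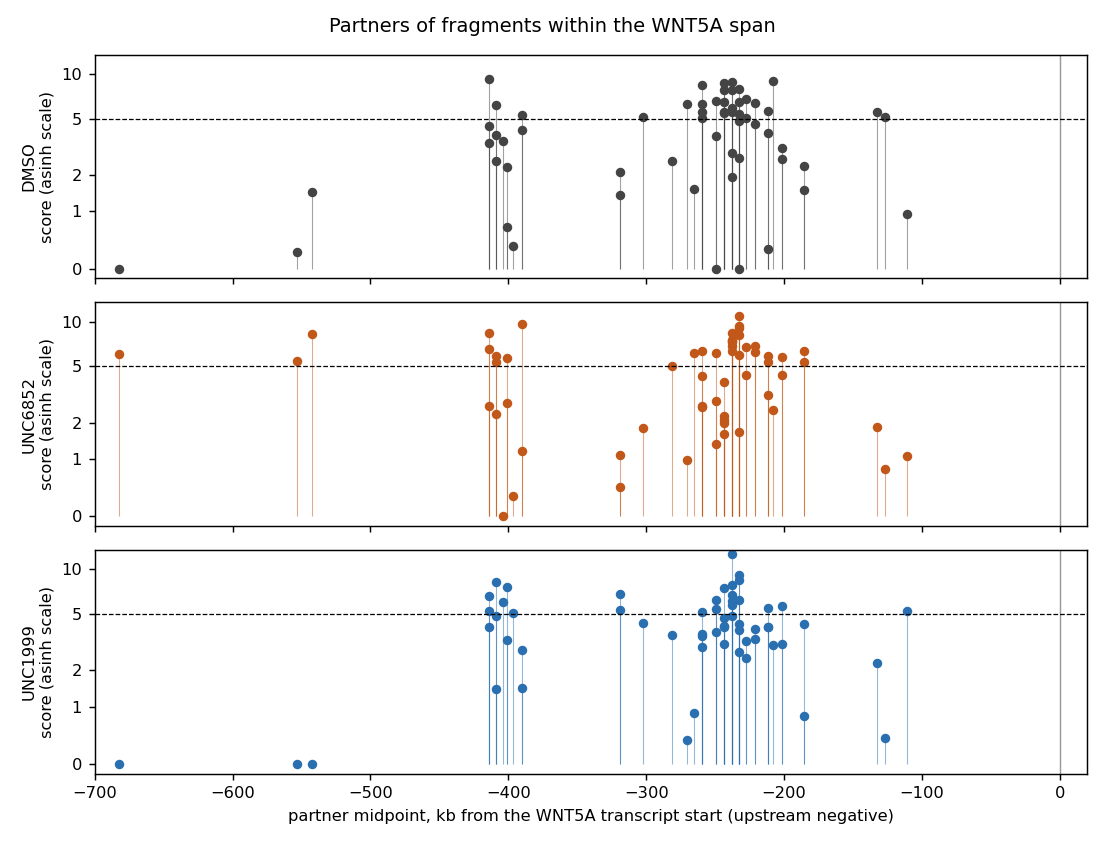
Score (asinh scale, threshold dashed) of 60 of the 70 pairs at the WNT5A span against the midpoint of the partner, in kb from the transcript start (grey line, upstream negative), in the 3 profiles. Called pairs gather 150 to 300 kb upstream in every profile, and the 10 pairs not drawn lie outside the drawn range, farther upstream or downstream of the gene.

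WNT7B, a ligand of lung, kidney and nervous system development at chr22:45920366-45977162, had no pair at its ends and 10 in its span, of which DMSO called 1, UNC6852 4 and UNC1999 5, none in more than 1 profile. Over its span WNT3A had 15 calls in DMSO, 24 with UNC6852 and 6 with UNC1999. The fragment chr1:228445364-228447936 was met from 6 fragments of WNT3A, with 3, 3 and 1 calls. At WNT6, chr2:218973565-218978865 was met from 4 fragments, with 0 calls in DMSO, 4 with UNC6852 and 2 with UNC1999. From 3 fragments of the WNT10A span, 1 of them shared with WNT6, it had 2, 2 and 1 calls. Pairs of the 10 genes with another chromosome numbered 147. DMSO called 46 (31.3%, against 30.0% of all pairs between chromosomes), UNC6852 49 (33.3%, against 34.3%) and UNC1999 52 (35.4%, against 36.1%), and 0 were called in more than 1 profile, against 0.334%. These shares are near the background.

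Other genes of the pathway were read the same way, on genes with at least 3 pairs. Of 9 other WNT ligands 6 were measured: against DMSO, UNC6852 had 1 higher and 0 lower and UNC1999 2 higher and 1 lower. WNT2 was highest for UNC6852 (0.78) and WNT9A lowest (-0.48), and all 4 WNT9A pairs scored 0 in UNC1999. Of 15 receptors 8 were measured, with 1 higher and 0 lower for each compound. The Frizzled receptor FZD2 was highest (0.96), with 0 of 7 pairs called in DMSO, 4 with UNC6852 and 3 with UNC1999, and FZD7 was lowest (-0.15). Of 9 R-spondins and their receptors 4 were measured, with 1 higher and 0 lower for each compound, from RSPO2 (1.12) to LGR4 (-0.33).

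Of 13 WNT antagonists 9 were measured, with 1 higher and 3 lower in UNC6852 and 3 higher and 2 lower in UNC1999. SFRP1 (0.99) and SFRP5 (-1.06), both decoys that bind WNT proteins, stood at the extremes for UNC6852. Of 16 intracellular pathway genes 3 were measured, with 0 higher and 1 lower for each compound, from LEF1 (-0.12) to the kinase GSK3A (-0.59). Of 9 target genes 6 were measured, with 1 higher and 0 lower for each, from MSX1 (0.51) to CDX2 (-0.20). No gene of WNT secretion had 3 pairs. Over these lists together, 5 of 36 genes were higher and 4 lower in UNC6852, where 18.3% and 13.6% of all 4979 genes were. In UNC1999 8 were higher and 4 lower, where 15.7% and 16.3% of all genes were. The 36 genes had medians of -0.03 and 0.14 against 0.07 and -0.01 over all genes.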

How the data were processed

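Each deposited value is a CHiCAGO score, which the authors computed per pair of DpnII fragments and condition over 15 pooled libraries, per the file headers and the labels. The build is GRCh38, per the submitters' processing notes. For the aligner and the caller, versions and settings are not given in the sources used here. Read numbers are unknown, so no depth or detection floor is given. Fragment starts that fell in RefSeq promoter windows were checked, and 1655 of 1655 read GATC.

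Genes were placed by RefSeq (GRCh38.p14). The 10 genes and the gene lists were chosen with earlier results of these data known. Named were all 10 genes, per gene the pair with the highest mean score and those with the largest rise and fall from DMSO, pairs called in all profiles or joining WNT genes, gene-end partners called in at least 2 profiles, and the extremes of each list for UNC6852. Others named were chosen after their values were seen. Partners of a gene at most 25 kb apart were joined into stretches. Values came from Python 3.11.15, numpy 2.4.6, pandas 2.3.3, scipy 1.17.1 and matplotlib 3.10.9. In simulated data, normal noise (standard deviation 0.5) and a shift were added to the asinh DMSO scores, with values below 0 set to 0. Planted shifts of -1, -0.5, 0.5 and 1 in 50 genes each of 4979 returned -0.80, -0.40, 0.51 and 1.05. The UNC6852 scores were not used, so the spread between real profiles was not covered. Single libraries were not analysed here. A further gene name at a partner fragment is not reported here.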

Additional observations from a re-analysis of the deposited data

How the results depend on the processing

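No paired analysis was possible because each condition is 1 pooled column, and no replicate could be left out. Of 224 values recomputed over 18 settings, 151 moved by less than 1.5 times or their counting interval and 73 moved further.

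At a threshold of 7, DMSO called 6.85%, UNC6852 9.59% and UNC1999 9.59% of the 73 pairs, and none recurred (0% for every kept share). At 10 the calls were 0%, 0% and 1.37%, with 0% recurring or kept. With gene ends within 0 bp, 15 pairs remained listed, and 0% recurred or were kept. With ends within 5000 bp, 196 pairs were listed, and with the gene span (added after the data were seen) 261. With the other end at a gene, 16 pairs were listed, DMSO called 18.8%, 18.8% were lower in UNC6852, and 0% recurred or were kept. Merging other ends raised recurrence to 20.3%, UNC6852 calls among DMSO calls to 37.5%, DMSO calls among UNC6852 calls to 30.0% and UNC1999 calls among UNC6852 calls to 26.7%. A merged pair keeps the highest score per profile and can take in pairs outside the 73, so the sets differ. At a mean score of at least 5, only 4 pairs were left. This filter uses the scores themselves and so favours pairs that recur, without requiring it. DMSO called 50%, UNC6852 100% and UNC1999 75%, and 100% recurred. Kept shares then ran from 33.3% to 100% (50% of DMSO calls in UNC1999, 100% in UNC6852, 50% of UNC6852 calls in DMSO, 75% in UNC1999, 33.3% of UNC1999 calls in DMSO, 100% in UNC6852), and 0% differed by 1.

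Against DMSO, UNC1999 called 1 gene as reported and 5 at a difference of 0.25. It called 0 on ln(score + 1), with ends within 0 bp, with the other end at the gene or at a difference of 1. It called 2 with the bait at the gene (WNT6 at 0.57 and WNT11), with merged ends (WNT3 at -1.32 and WNT8B at 0.58), with ends within 5000 bp (WNT5A at 0.95 and WNT11) and with gene spans (WNT7B at 0.60 and WNT11). It called 3 with pairs of up to 2 Mb (WNT6 at 0.59, WNT8B at 0.53 and WNT11), with means per bait (WNT1 at -0.51, WNT2B at -0.66 and WNT11) and with quantile-normalized scores (WNT1 at -0.64, WNT3A at -0.72 and WNT11 at -0.83). UNC6852 called 1 as reported, 0 with the other end at the gene or at a difference of 1, 2 with means per bait (WNT2B at -0.82 and WNT3A), 3 with merged ends (WNT3 at -0.67, WNT8B at 0.57 and WNT3A) or quantile-normalized scores (WNT1 at -0.58, WNT10A at -0.61 and WNT3A) and 5 at 0.25. It called WNT1 alone with ends within 0 bp (-0.78), WNT5A alone with ends within 5000 bp (0.65) and WNT2B alone with the gene span (0.64). WNT3A in UNC6852 minus DMSO turned from -0.66 to 0.29 with ends within 5000 bp and 0.43 with the gene span. WNT3 in UNC6852 minus UNC1999, used as a yardstick between 2 profiles, turned from 0.65 to -0.072 with the gene span. WNT8B kept its sign in all 10 settings for both compounds (0.22 to 0.57 for UNC6852, 0.15 to 0.58 for UNC1999), and WNT11 for UNC1999 (-0.83 to -0.42). The causes of these moves were not tested beyond what each setting does to the number of pairs. Few pairs per gene and unknown read numbers limit all values.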
